A study of Mus musculus with 12 samples.

Results

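Genes of excitatory, sensory and opioid peptide signalling in the gut were followed in mouse colon after toxin ablation of enteric neurons. They were taken by symbol, 9 of the 27179 genes in the table: the peptide precursors Tac1, Penk, Nmu, Grp, Calca and Calcb, the opioid receptors Oprk1 and Oprm1, and the neuromedin U receptor Nmur1. Of the 9, 5 reached 0.5 TPM (transcript abundance scaled to gene length and library size) in at least 5 libraries and entered the test across all genes. These were Tac1, Penk, Nmu, Grp and Calcb, and all 5 were lower in the ablated colon. Oprk1 also fell, in a fit without that minimum, while Calca, Nmur1 and Oprm1 were close to the limit of detection in both groups.

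The Cre-positive group (7 libraries) had the genotype BAF53b-Cre::R26-iDTR. The promoter of the neuronal chromatin subunit BAF53b drives Cre there, and where Cre has acted, the R26-iDTR allele makes the receptor through which diphtheria toxin enters and kills a cell. The Cre-negative group (5 libraries) came from littermates with R26-iDTR alone, in which the receptor stays off. Both groups were injected by laparotomy with 4 µL of diphtheria toxin at 0.33 ng/µL in 10% India ink, into the muscle layer of the colon, and the inked piece of the full wall was sequenced. Age, sex and the time after injection are not in the labels. The libraries are numbered within each group, and nothing states that each is its own animal, so the p-values rest on library-to-library spread, which may be technical.

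Enteric neurons are grouped by the messengers they carry. Excitatory motor neurons release acetylcholine with tachykinins, which contract smooth muscle. Intrinsic sensory neurons of the mouse gut carry CGRP and neuromedin U, and enkephalins dampen transmitter release through opioid receptors. Several of these peptides have a second source in the gut wall: substance P, for example, is also made in enterochromaffin cells of the epithelium. In pieces of whole tissue, fewer cells of a type and less RNA per cell cannot be told apart.

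The precursor proteins are cut into small peptides, and the coding stretches of the best known ones are shown here to tell which peptides each gene encodes. Levels are per gene and do not tell which transcripts were present. Of 4 coding transcripts of Tac1, 3 hold the substance P stretch and 2 that of neurokinin A. CGRP is in 1 of 6 Calca and 2 of 3 Calcb transcripts. The Penk and Nmu stretches are in all coding transcripts of their genes. All were read from GENCODE M21 transcripts (GRCm38, the assembly also called mm10), 5′ to 3′ on the coding strand. For Tac1 the stretches lie in separate exons, at chr6:7556732-7556764 and chr6:7559101-7559130 on the plus strand. The Penk stretch (chr4:4134328-4134354, minus strand) is the first of 7 enkephalin copies in the precursor, with the codons of the basic residues where it is cut out. The Nmu stretch codes for the last 8 residues of the peptide, the part that its receptors bind, and an intron divides it between chr5:76335854 and chr5:76337452 on the minus strand.
Tac1, substance P: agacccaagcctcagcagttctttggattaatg
Tac1, neurokinin A: cataaaacagattcctttgttggactaatg
Penk, first enkephalin: aagaagtacggaggcttcatgaaacgg
Nmu, last 8 residues: tactttttattcaggccacgcaac

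CGRP is encoded by a pair of neighbouring genes, 82.3 kb apart on chromosome 7, whose CGRP stretches are given for comparison. Capitals mark the positions where they differ. The Calca stretch lies at chr7:114632470-114632580 on the minus strand and the Calcb stretch at chr7:114721994-114722104 on the plus strand.
Calca, CGRP: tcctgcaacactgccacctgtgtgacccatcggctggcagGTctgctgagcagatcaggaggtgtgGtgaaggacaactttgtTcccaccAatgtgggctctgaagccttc
Calcb, CGRP: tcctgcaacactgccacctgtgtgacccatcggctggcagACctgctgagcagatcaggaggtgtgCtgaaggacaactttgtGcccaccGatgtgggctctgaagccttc
The stretches are identical at 106 of 111 bases (95.5%), and the longest run shared by any transcripts of the 2 genes is 61 bases. The read length is not given in the sources used here. How reads from the shared part were divided between Calca and Calcb is therefore uncertain.

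Depth recovered from the deposited values was 13.4 to 26.9 M reads per library, 153 M in the Cre-positive and 103 M in the Cre-negative group. Cre-positive 1 was the shallowest library, with a mitochondrial share of 18.7%, where the other 11 had 3.56 to 10.4%. Of 6 small intestine markers Apoa4 and Defa24 were at 0 in every library, and Fabp6 and Lyz1 reached the minimum, with a list sum of 18.8 to 36.8 TPM in Cre-positive and 23.0 to 28.2 TPM in Cre-negative libraries. Smooth muscle markers summed to 7029 to 23187 TPM in Cre-positive and 6748 to 10548 TPM in Cre-negative libraries. Markers of colonic epithelium summed to 7656 to 14356 TPM in Cre-positive and 8175 to 10319 TPM in Cre-negative libraries. No marker of smooth muscle or colonic epithelium passed the test. The 7 enteric glia markers all had negative log2 fold changes (median -0.77), and none passed. Their sum, of which Entpd2 made up the most, was 29.5 to 41.5 TPM in Cre-positive and 39.0 to 48.3 TPM in Cre-negative libraries. Foxd3, at 39.6% of its Cre-negative mean, did not overlap between the groups, and Fabp7, at 29.0%, passed in the fit without a minimum (limma adjusted p = 0.0424). The part of glia in the results was not tested. Of 15 pan-neuronal markers 13 fell and none rose, and their summed level was 31.2 to 55.4 TPM in Cre-positive and 127 to 267 TPM in Cre-negative libraries. In all, 231 of 16164 genes tested passed limma at an adjusted p of 0.05 (1.43%), 68 higher and 163 lower (1.01%).

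Tac1 encodes substance P and neurokinin A, the tachykinins of excitatory motor and sensory neurons (gene ID 21333, chromosome 6, 7554879 to 7565834). It had the highest level of the 9 genes in both groups. The Cre-positive libraries ran from 18.9 TPM through a median of 30.4 to 42.8 TPM, and the Cre-negative libraries stood at 79.0, 76.4, 87.6, 50.3 and 54.0 TPM. Every Cre-positive library lay below every Cre-negative one, and a gap of 42.8 to 50.3 TPM separated the groups. The means were 31.3 ± 8.50 TPM in Cre-positive and 69.5 ± 16.4 TPM in Cre-negative libraries (SD, n = 7 and 5), so Tac1 fell 2.22-fold and 45.1% of its level was left. Its log2 fold change was -1.15, computed after adding 0.5 TPM, a constant that makes changes of scarce transcripts look smaller (95% interval -1.60 to -0.70, limma adjusted p = 0.0134). The adjusted p rose to 0.0528, 0.0726 and 0.0648 without Cre-negative 1, 2 or 3.

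Enteroendocrine cells include another known source of Tac1 in colon. Their summed markers were at 945 to 1382 TPM in Cre-positive and 965 to 1234 TPM in Cre-negative libraries. Pyy and Insl5 made up most of this sum in every library, so the sum does not show whether enterochromaffin cells were kept. Of these 12 markers 1 rose and 2 fell. Tph1, with which enterochromaffin cells make serotonin, averaged 11.7 ± 1.64 TPM in Cre-positive and 5.95 ± 1.11 TPM in Cre-negative libraries (limma adjusted p = 0.00407). The 2 that fell were Sst, the somatostatin gene, which neurons also express, and Scgn, a calcium sensor of endocrine cells. Sst averaged 20.4 ± 6.66 TPM in Cre-positive and 44.4 ± 8.19 TPM in Cre-negative libraries (limma adjusted p = 0.0138). Their part in the Tac1 level was not tested.

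Nmu encodes neuromedin U, a peptide named for its contraction of uterine muscle and carried in the gut by sensory neurons (gene ID 56183, chromosome 5, 76333495 to 76363788). The Cre-positive libraries held 0 to 3.05 TPM with a median of 0.880, and the Cre-negative libraries 9.64, 22.8, 20.9, 9.06 and 13.6 TPM. The groups stood apart, with Cre-positive 5 the highest ablated library. Nmu fell 15.4-fold, with means of 0.988 ± 1.03 TPM in Cre-positive and 15.2 ± 6.36 TPM in Cre-negative libraries, and its log2 fold change was -3.58 (-4.51 to -2.64, limma adjusted p = 0.000791). Behind the Cre-positive values were 65 reads in all, against 770 in the Cre-negative group. Cre-positive 6 had none, which at its depth allows up to 3 reads or 0.256 TPM.

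Grp encodes gastrin-releasing peptide, the mammalian relative of bombesin, found in enteric interneurons and motor neurons (gene ID 225642). Cre-positive libraries ranged from 0.162 to 4.43 TPM with a median of 1.20, and Cre-negative libraries were at 9.26, 16.5, 21, 9.78 and 9.76 TPM. The groups again did not overlap, with Cre-positive 5 the highest and Cre-positive 6 the lowest of the ablated libraries. The means were 2.01 ± 1.60 TPM in Cre-positive and 13.3 ± 5.27 TPM in Cre-negative libraries, a 6.60-fold fall, and the log2 fold change was -2.67 (-3.64 to -1.69, limma adjusted p = 0.00819).

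Calcb, the gene of CGRP beta, stood above Calca in all 5 Cre-negative libraries (gene ID 116903, chromosome 7, 114718643 to 114723365). CGRP is a vasodilator and sensory messenger, and Calcb is the form that enteric neurons mainly use. It stood at 0.173 to 1.55 TPM, median 0.415, in Cre-positive libraries and at 5.18, 6.13, 9.43, 3.14 and 4.55 TPM in Cre-negative ones. No Cre-positive library reached the lowest Cre-negative one, and Cre-positive 5 was again the highest. Calcb fell 9.28-fold, with means of 0.613 ± 0.490 TPM in Cre-positive and 5.69 ± 2.36 TPM in Cre-negative libraries (49 Cre-positive and 332 Cre-negative reads), and a log2 fold change of -2.50 (-3.16 to -1.84, limma adjusted p = 0.000791).

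Calca, the gene of calcitonin and CGRP alpha on the same chromosome (gene ID 12310, 114631478 to 114636357), lay under the minimum level. Counts per gene cannot separate its calcitonin transcripts from its CGRP transcripts. Cre-positive libraries held 0 to 0.858 TPM with a median of 0.112, and Cre-negative libraries 0.156, 0, 0.154, 0.160 and 0 TPM. The groups overlapped, and Cre-positive 3 and 4, at 0.858 and 0.527 TPM, gave 16 and 9 of the 32 reads of their group, against 8 reads in all Cre-negative libraries. In the fit without a minimum the log2 fold change was 0.29 (-0.22 to 0.80, limma adjusted p = 0.772). Calca is the CGRP gene of spinal sensory neurons, whose cell bodies lie outside the gut. The 8 sensory ganglion markers summed to 4.30 to 10.8 TPM in Cre-positive and 6.57 to 9.59 TPM in Cre-negative libraries. Among them Trpv1, Scn11a and Avil reached the minimum and none passed, while Scn10a and Prdm12 were at 0 in all 12 libraries.

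Penk, the precursor of the enkephalins, was the second most abundant of the 9 genes (gene ID 18619, chromosome 4, 4133531 to 4138819). The Cre-positive libraries ranged from 5.37 TPM through a median of 8.44 to 37.1 TPM, and the Cre-negative libraries stood at 38.6, 48.3, 55.1, 24.5 and 38.3 TPM. Here the groups overlapped through a single library: Cre-positive 2, at 37.1 TPM, exceeded Cre-negative 4, and the other 6 were all below it. Penk fell 3.11-fold on the means, 13.2 ± 11.1 TPM in Cre-positive and 41.0 ± 11.6 TPM in Cre-negative libraries, with a log2 fold change of -1.85 (-2.72 to -0.98, limma adjusted p = 0.0389). Without Cre-positive 2 the log2 fold change was -2.14 (adjusted p = 0.00213), and without any other single library the adjusted p lay between 0.0511 and 0.153. Cre-positive 2 also had the highest sum of 8 fibroblast and PDGFRA-positive cell markers, 1129 TPM, where the other Cre-positive libraries had 395 to 974 TPM and the Cre-negative libraries 492 to 831 TPM. Its smooth muscle sum was 15957 TPM, below that of Cre-positive 6 alone (23187 TPM), where Penk was at 8.44 TPM. Cre-positive 3, next in the fibroblast sum at 974 TPM, had Penk at 13.7 TPM. The part of these cells in the Penk level was not tested.

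**Figure D1:**
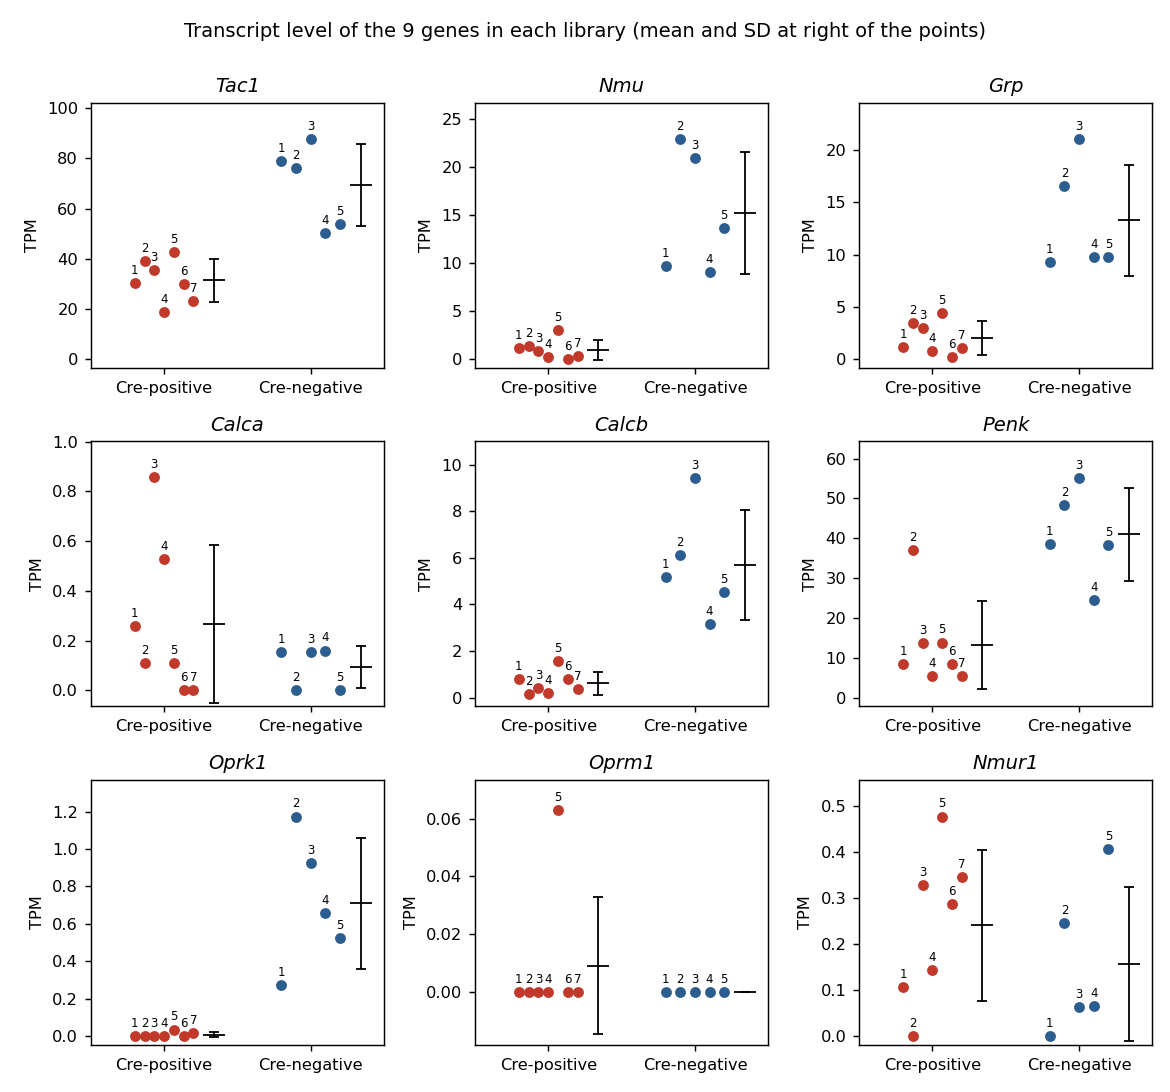
TPM of each of the 9 genes in every library, one panel per gene with its own linear axis in TPM. Points are libraries with their number, 7 Cre-positive (red, left) and 5 Cre-negative (blue, right), and bars give mean and SD. The groups are apart for Tac1, Nmu, Grp, Calcb and Oprk1, Penk overlaps through Cre-positive 2 at 37.1 TPM, and Calca, Oprm1 and Nmur1 stay under 1 TPM.

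Among the receptors, Oprk1, the kappa opioid receptor through which dynorphins inhibit enteric neurons (gene ID 18387, chromosome 1, 5588466 to 5606131), was at 0 TPM in 5 Cre-positive libraries and at 0.0353 and 0.0149 TPM in Cre-positive 5 and 7. The Cre-negative libraries had 0.271, 1.17, 0.923, 0.660 and 0.526 TPM. Oprk1 missed the minimum because only 4 libraries reached 0.5 TPM, all of them Cre-negative, and the groups did not overlap. In reads, 3 were found in the Cre-positive group and 211 in the Cre-negative group, a depth-corrected ratio of 0.961% (95% exact binomial interval 0.197 to 2.85%, counting error only). In the fit of 22842 genes without a minimum, where 273 were called lower (1.2%) and 349 in either direction (1.53%), its log2 fold change was -1.21 (-1.53 to -0.88, limma adjusted p = 0.00128). Of the 6 genes that fell it kept the smallest share of its level.

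Oprm1, the mu opioid receptor on which morphine and loperamide act (gene ID 18390, chromosome 10, 6758506 to 7038198), was detected in Cre-positive 5 at 0.0630 TPM and was at 0 in the other 11 libraries. The recovered count behind this value was 1 read at a length of 1294 bases, which fits only within the tolerance of the recovery. It may stand for more reads. With the other 11 libraries at 0, Oprm1 could not be compared at this depth. Nmur1, a receptor of neuromedin U that type 2 innate lymphoid cells carry (gene ID 14767, chromosome 1, 86386303 to 86426228), was detected in 6 of 7 Cre-positive and 4 of 5 Cre-negative libraries. It reached 0 to 0.478 TPM, median 0.286, in Cre-positive libraries and 0, 0.245, 0.0626, 0.0654 and 0.407 TPM in Cre-negative ones, from 26 Cre-positive and 12 Cre-negative reads. The groups overlapped over nearly their whole range. Its log2 fold change was 0.18 (-0.22 to 0.58, limma without a minimum, adjusted p = 0.836). None of the 5 tested markers of these lymphoid cells passed, and the 9 listed markers summed to 14.3 to 24.7 TPM in Cre-positive and 14.3 to 19.8 TPM in Cre-negative libraries.

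The 5 tested genes were all called lower, where 1.01% of all genes were. Their median log2 fold change was -2.50, against 0.03 over all genes tested. Nmu, Calcb and Grp passed the minimum partly through the group where they were high: 4, 3 and 6 of the 7 Cre-positive libraries reached 0.5 TPM, and all 5 Cre-negative ones did. For 4 of the 5 genes no Cre-positive library overlapped a Cre-negative one, which held downward for 251 of the 16164 genes tested (1.55%). With 1 library left out at a time, Penk lost its call in 11 of 12 fits and Tac1 in 3, those without Cre-negative 1, 2 or 3.

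The share of transcript left differed widely among the genes. On the means it was 45.1% for Tac1, 32.1% for Penk, 15.2% for Grp, 10.8% for Calcb and 6.49% for Nmu. The coefficient of variation among Cre-positive libraries was 27.1% for Tac1 and 79.4 to 104% for the other 4. Among Cre-negative libraries it was 23.6% for Tac1, 28.3% for Penk and 39.7 to 41.8% for Grp, Calcb and Nmu. Some libraries kept their place over most of the 5 genes. Cre-positive 5 was the highest ablated library for 4 of the 5 genes, all but Penk, and Cre-positive 4 and 6 were each the lowest for 2. Cre-positive 2 did not keep its place: it was the highest ablated library for Penk, at 90.5% of the Cre-negative mean, and the lowest for Calcb, at 3.03%. Over the 12 libraries, centred on the group means, the Pearson r of log2(TPM + 0.5) was 0.15 between Calcb and Penk and 0.28 between Calcb and Grp, against 0.90 between Nmu and Grp. In the Cre-negative group number 3 was the highest for 4 genes and number 4 the lowest for 4.

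**Figure D2:**
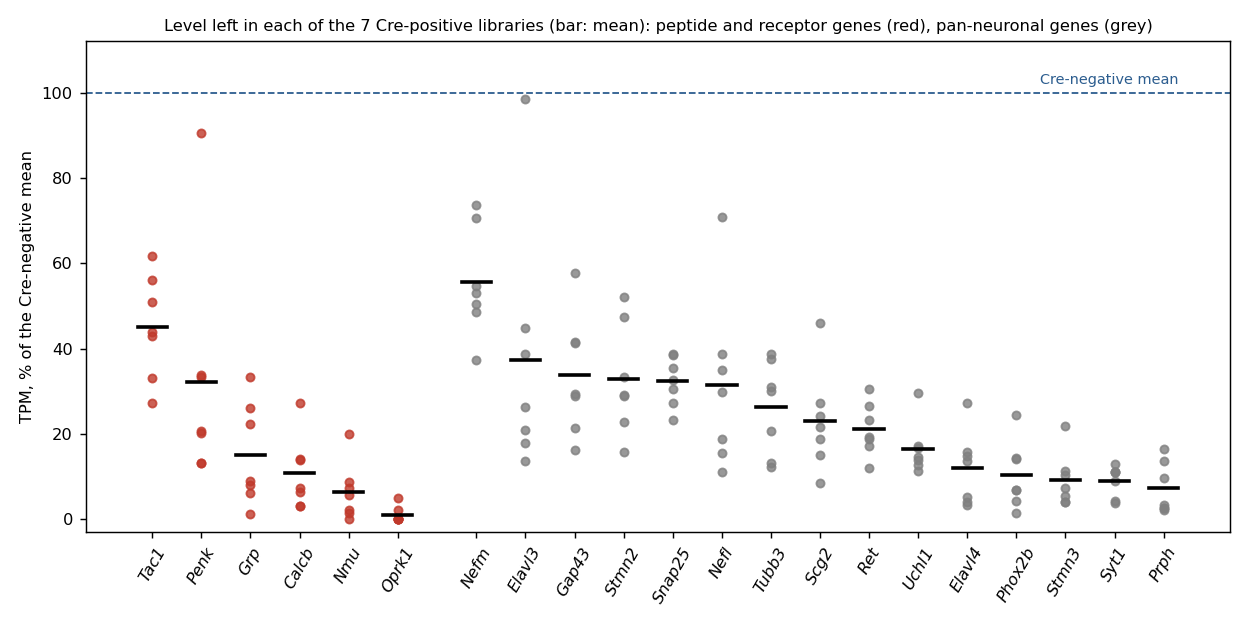
Level left in each of the 7 Cre-positive libraries, as TPM in percent of the Cre-negative mean (dashed line at 100%), for 6 of the 9 genes (red) and 15 pan-neuronal genes (grey). Dots are libraries and black bars their means. Tac1 keeps 45.1% on average, Nmu 6.49% and Oprk1 1.01%, and the pan-neuronal genes lie between 7.26% (Prph) and 55.5% (Nefm).

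Each gene was then set against general neuronal transcript in the same libraries. The neuronal score, the mean log2(TPM + 0.5) of the 15 pan-neuronal markers, was 1.15 ± 0.302 in Cre-positive and 3.07 ± 0.424 in Cre-negative libraries, a difference of -1.92. Subtracting it from every gene asks whether a gene changed by another amount than the score, and 98.5% of all genes tested did. The median gene was at 0.03 between the groups and the score at -1.92, so these shares are no background for neuronal genes. Calls on the lower side numbered 14 genes (0.0866%). They included Prph (-1.71), Stmn3 (-0.87) and Uchl1 (-0.56), which are part of the score, while its members Elavl3 (0.99) and Nefm (1.27) were called higher. Tac1 fell by less than the score, with a log2 difference of 0.77 (0.28 to 1.26, limma adjusted p = 0.00390), as 98.4% of all genes did. Nmu fell by more, with a log2 difference of -1.66 (-2.34 to -0.98, adjusted p = 6.71e-05).

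Grp was lower than it by 0.75 log2 units (-0.75, interval -1.46 to -0.03, limma adjusted p = 0.0416), a call lost in 10 of 22 alternative fits. Calcb had a difference of -0.58 (-1.25 to 0.08, adjusted p = 0.0823) and Penk one of 0.07 (-0.58 to 0.71, adjusted p = 0.832), so for Penk the interval reaches from 0.58 below to 0.71 above the change of the score. With a constant of 0.1 TPM the Tac1 and Nmu differences were 1.11 and -2.10.

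The receptors and peptidases of these pathways were compared next, from lists of 42 genes that hold the 9. Of the other 33 genes 18 reached the minimum, none of them passed in either direction, and their median log2 fold change was -0.02 (0.03 over all genes tested). Ramp1, the partner protein that turns the calcitonin receptor-like receptor into a CGRP receptor, averaged 44.6 ± 9.08 TPM in Cre-positive and 43.8 ± 3.35 TPM in Cre-negative libraries. Its log2 fold change of 0.00 had an interval of -0.30 to 0.30 (limma adjusted p = 0.9998). Calcrl, the receptor itself, averaged 4.28 ± 1.34 TPM in Cre-positive and 5.20 ± 1.24 TPM in Cre-negative libraries (-0.26, interval -0.73 to 0.20, adjusted p = 0.726).

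Differences among the tachykinin receptors were not tested. Tacr1, the substance P receptor of interstitial cells, neurons and immune cells, averaged 1.54 ± 0.577 TPM in Cre-positive and 1.26 ± 0.322 TPM in Cre-negative libraries (limma adjusted p = 0.828). Tacr2, the neurokinin A receptor of smooth muscle, averaged 2.73 ± 1.17 TPM in Cre-positive and 3.49 ± 0.529 TPM in Cre-negative libraries (adjusted p = 0.667). Tacr3, which enteric neurons carry, lay under the minimum at 0 to 0.0883 TPM in Cre-positive libraries and 0.154, 0.496, 0.304, 0.190 and 0.219 TPM in Cre-negative ones. Its groups did not overlap (10 Cre-positive and 64 Cre-negative reads), and in the fit without a minimum its log2 fold change was -0.53 (-0.74 to -0.32, adjusted p = 0.0150).

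Further receptors of these peptides or of related ones lay under the minimum as well. Oprd1, the delta receptor that enkephalins bind, averaged 0.187 ± 0.0761 TPM in Cre-positive and 0.226 ± 0.0861 TPM in Cre-negative libraries (limma without a minimum, adjusted p = 0.857). Oprl1, the receptor of nociceptin, fell in that fit, from 15 Cre-positive and 71 Cre-negative reads (0.0543 ± 0.0557 TPM in Cre-positive and 0.343 ± 0.180 TPM in Cre-negative libraries, adjusted p = 0.0343), and is named after its values were seen. Grpr, the receptor of gastrin-releasing peptide, averaged 0.531 ± 0.498 TPM in Cre-positive and 0.258 ± 0.172 TPM in Cre-negative libraries, Nmur2 0.174 ± 0.117 TPM in Cre-positive and 0.159 ± 0.0745 TPM in Cre-negative libraries, and Nmbr 0.0186 ± 0.0320 TPM in Cre-positive and 0.0260 ± 0.0581 TPM in Cre-negative libraries. Their adjusted p in that fit were 0.789, 0.970 and 0.961. For each of these 3 genes the groups overlapped.

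Among ligands of the same families, Nmb, the neuromedin B gene and relative of Grp, averaged 4.84 ± 2.12 TPM in Cre-positive and 4.22 ± 0.821 TPM in Cre-negative libraries (limma adjusted p = 0.945). Adm, which encodes adrenomedullin of the CGRP family, averaged 8.78 ± 2.27 TPM in Cre-positive and 8.0 ± 1.84 TPM in Cre-negative libraries (adjusted p = 0.905). Pdyn, the dynorphin precursor and ligand gene of the kappa receptor, averaged 0.438 ± 0.759 TPM in Cre-positive and 1.02 ± 0.787 TPM in Cre-negative libraries (adjusted p = 0.537). Of the 7 peptidase genes 6 were tested and none passed. Ece1, the endothelin-converting enzyme that also breaks down internalised substance P and CGRP, averaged 38.3 ± 3.47 TPM in Cre-positive and 38.6 ± 2.15 TPM in Cre-negative libraries (adjusted p = 0.983).

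**Figure D3:**
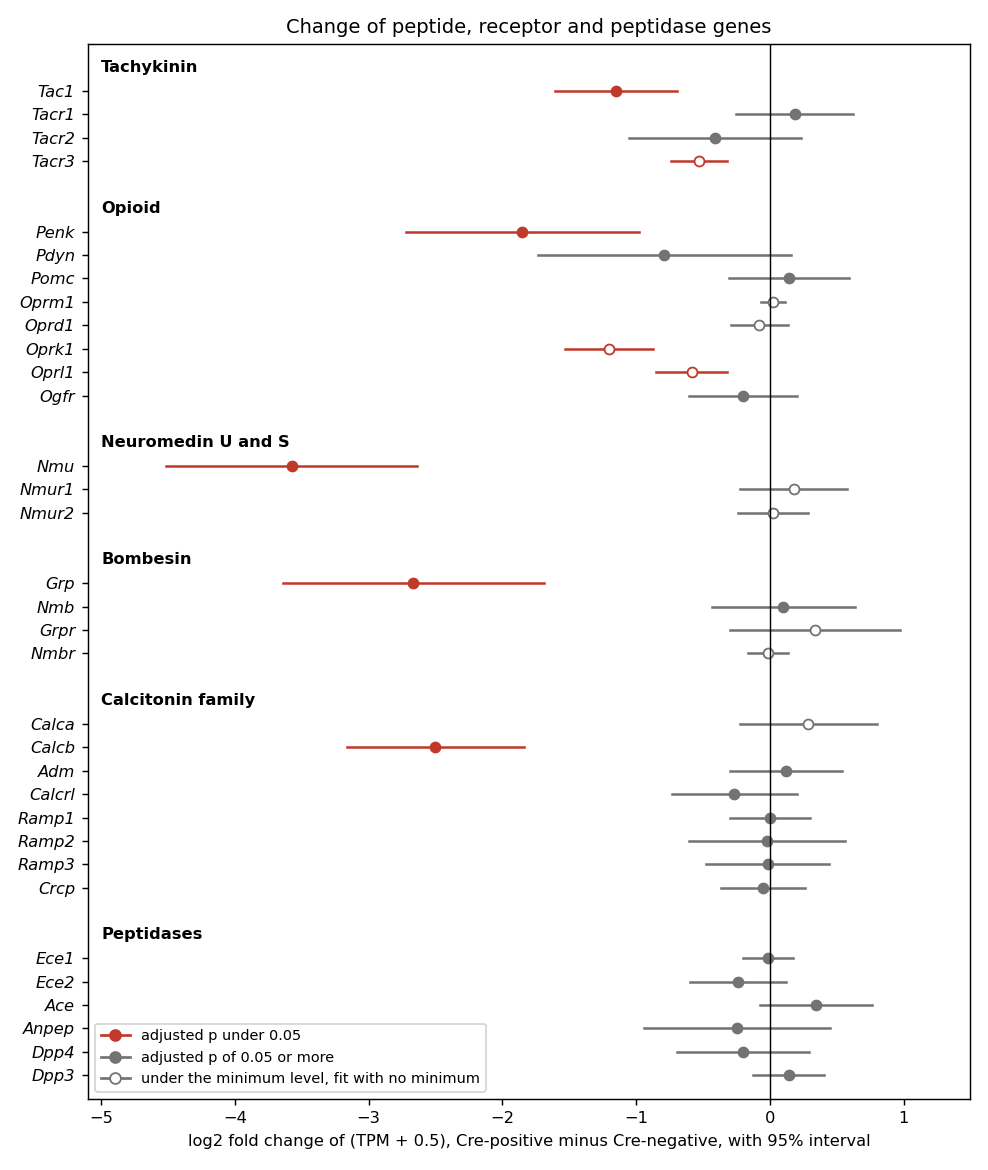
Log2 fold change of (TPM + 0.5), Cre-positive minus Cre-negative, with 95% interval, for tested genes of 6 families and, as open circles, genes under the minimum level from the fit without one. Red marks an adjusted p under 0.05. The peptide genes Tac1, Penk, Nmu, Grp and Calcb lie at -1.15 to -3.58, while Ramp1 is at 0.00 and Tacr1 at 0.19.

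For each tested gene the 3 most similar genes were taken by Pearson r of log2(TPM + 0.5), centred on the group mean, over the 12 libraries. These are descriptions of libraries that share depth and dissection. Grp was closest to Vip (r = 0.914), the peptide of inhibitory motor neurons, to the neuronal filament gene Prph (0.909) and to the glial receptor gene Gpr37l1 (0.906). Nmu was closest to Grp (0.900), Edn1 (0.898) and Gpr37l1 (0.892). The genes closest to Tac1 were Gm5148 (0.943), the glycogen phosphorylase gene Pygm (0.900) and the lectin gene Clec2d (0.883). For Penk they were 1190007I07Rik (0.913), the transcription factor gene Hand2 (0.867) and Mdm1 (0.853), and for Calcb they were Col28a1 (0.879), Hsbp1l1 (0.840) and the chemokine gene Ccl20 (0.836). None of the 3 nearest to Tac1, Penk or Calcb passed the test between the groups, nor did Edn1, while Vip, Prph, Grp and Gpr37l1 did.

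All 9 genes are also in the edgeR results that the authors deposited. In the authors' deposited table Oprk1 has a log2 fold change of -6.25 (false discovery rate 0.000181), Nmu -4.0 (0.00491), Calcb -3.24 (0.00287), Grp -2.78 (0.0155) and Tac1 -1.18 (0.00952). Penk has -1.68 in the authors' deposited table with a false discovery rate of 0.0969, which misses 0.05. Calca, Nmur1 and Oprm1 have 0.742, 0.986 and 0.725 there.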

How the data were processed

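RNA of 12 mouse colon pieces was sequenced. Per the labels' protocols, polyadenylated RNA extracted with Trizol went into directional libraries. The tools were bcl2fastq 2.17, HISAT and featureCounts with mm10 as the build, per the submitters' processing notes; other versions are not given in the sources used here. The authors deposited TPM per gene, and a table of their edgeR comparison with log2 fold change, log2 CPM, an F score, p-value and false discovery rate, whose design is not stated.

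A gene was tested where 5 or more libraries reached 0.5 TPM, which left 16164 genes. Their log2(TPM + 0.5) values went into limma 3.58.1, run in R 4.3.3 (eBayes with a trend), Cre-positive minus Cre-negative, two-sided, with Benjamini-Hochberg adjustment over all genes tested. Genes under the minimum came from the same fit over the 22842 genes above 0. Whole reads were recovered from TPM as whole multiples of a unit per library and gene length (within 0.05 read). A read per kilobase was worth 0.0697 to 0.129 TPM. For a gene read in a single library the smallest count within that tolerance was taken, which can be too low. Intervals on reads cover counting error only. On simulated data with 16164 genes, 65% of changes of 1 log2 unit and 92% of changes of 2 were recovered. There, 11 unchanged genes were called as well. Noise was drawn independently for each gene, so variation that genes share within a library was not simulated. Coordinates and sequences came from GENCODE M21. Python 3.11.15 with pandas 2.3.3, SciPy 1.17.1 and matplotlib 3.10.9 was used.

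The members, gene lists and tests were chosen with earlier results of these data known. Genes named are the 9, their cognate receptors, listed genes that passed and the 3 most similar genes with a mean of at least 1 TPM; Nmb, Adm, Pdyn, Oprl1 and Ece1 and the markers named singly were picked after their values were seen.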

Additional observations from a re-analysis of the deposited data

Results flagged for a closer look

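In 3 of 18 sets of values (the 9 genes in each of the 2 groups) a single library stood apart from the others by Dixon's test; chance flags about 1 in 20 such sets. Penk in Cre-positive 2, at 37.1 TPM, was far above the other 6 ablated libraries, and the gap below it took up 0.733 of the whole range. Oprk1 in Cre-positive 5, at 0.0353 TPM or 2 reads, and Oprm1 in the same library, at 0.0630 TPM, stood apart only because nearly all other ablated libraries were at 0.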

How the results depend on the processing

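Nmu, Grp and Calcb kept their direction and an adjusted p under 0.05 in all 22 alternative fits. Leaving out 1 library at a time gave log2 fold changes of -1.26 to -1.04 for Tac1, -2.14 to -1.70 for Penk, -3.83 to -3.36 for Nmu, -2.88 to -2.39 for Grp, -2.67 to -2.31 for Calcb and, without a minimum, -1.36 to -1.08 for Oprk1. Same-numbered libraries had residual correlations of -0.28 to 0.36, and 1 of 5 correlated best with its own number. The labels do not say whether the numbers pair the samples, and 5 correlations cannot settle it. With the library number as a replicate block, where Cre-positive 6 and 7 do not enter the contrast, 3 of the 9 genes were called and 84 genes in all (15 higher, 69 lower). The block gave Tac1 -1.07 (adjusted p = 0.0679), Penk -1.61 (0.0692) and Oprk1 -1.21 (0.0967). Against the neuronal score, Grp was at -0.79 with a constant of 0.1 (adjusted p = 0.0921), -0.76 with voom on recovered reads (0.161) and -0.45 with the replicate block (0.161), while Calcb passed with the block at -0.71 (0.0389). Penk changed sign there, to -0.13 with a constant of 1 and -0.076 with a weight per library. Over libraries left out, these differences were -0.91 to -0.51 for Grp, -0.70 to -0.41 for Calcb and -0.16 to 0.17 for Penk, negative without Cre-positive 2 (-0.16) or Cre-negative 4 (-0.03). Genes called numbered 349 (273 lower) without a minimum and 1092 (654 higher, 438 lower) with a weight per library. They numbered 80 to 329 with 1 library left out (17 to 128 higher, 59 to 201 lower), and the 9 genes gave 3 to 5 calls. The cause of these shifts was not tested. Depth limits Calca, Nmur1 and Oprm1.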

Other observations

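Tac2 and Nms, relatives of the peptide genes, lay under the minimum and were at 0 in every Cre-negative library. Tac2, the neurokinin B gene, was at 1.60 TPM in Cre-positive 1 and at 0 in the other 11 libraries. That value can stand for as little as 1 read, in the shallowest library, whose mitochondrial share was 18.7%. Nms, the neuromedin S gene, was at 0.387 TPM in Cre-positive 1 and 0.0697 TPM in Cre-positive 6 and at 0 elsewhere. Pdyn, the dynorphin precursor, reached the minimum in 5 libraries and had its highest ablated value in Cre-positive 5, at 2.11 TPM, beside 0 to 0.535 TPM in the other 6. Its Cre-negative libraries stood at 0.310, 0.999, 2.04, 0.213 and 1.55 TPM.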
